A study of Homo sapiens with 6 samples.

Results

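The genes of the BCL2 family that decide between survival and death of a cell were followed in NCI-H660 cells given pyrvinium pamoate (PP) or PBS. The 10 members were taken by symbol from the 17177 genes of the table. They comprised the pro-survival genes BCL2, BCL2L1 and MCL1, the effectors BAX and BAK1, and the BH3-only genes BBC3, PMAIP1, BCL2L11, BID and BAD. NCI-H660 is an established line of neuroendocrine prostate cancer, and all 6 libraries came from cells of WT genotype on day 3, with 3 treated with PP and 3 with PBS. PP is an anthelmintic drug that the study used as an inhibitor of the RNA-binding protein ELAVL3, and its concentration on these cells is not given in the sources used here. The comparison asks which transcripts differ between PP and PBS. It holds 1 cell line, 1 time point and no cells in which ELAVL3 was removed. The study calls its samples independent, but neither it nor the labels say whether the libraries of a treatment came from separate cultures, so P values measure the spread between these libraries, which may be technical.

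Proteins of this family act at the outer membrane of the mitochondrion. BAX and BAK1 form pores there that release cytochrome c, the pro-survival proteins hold BAX and BAK1 back, and the BH3-only proteins relieve that hold or activate the effectors directly. The balance between them is set by transcription, by splicing, by phosphorylation and by protein turnover, of which RNA-seq sees only the amount of RNA.

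What binds the family together is the BH3 segment. In the effectors and the BH3-only proteins it is a short helix that fits a groove on the pro-survival proteins. Its coding sequence is shown for the 10 members because all of them carry it. Each line gives 45 bases of the coding strand from the reference transcript (GENCODE, MANE Select), with the 6 codons from the conserved leucine to the conserved aspartate in capitals.
BCL2: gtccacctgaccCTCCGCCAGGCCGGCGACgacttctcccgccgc
BCL2L1: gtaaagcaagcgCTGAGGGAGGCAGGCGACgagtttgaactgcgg
MCL1: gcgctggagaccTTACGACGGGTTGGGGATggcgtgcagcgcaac
BAX: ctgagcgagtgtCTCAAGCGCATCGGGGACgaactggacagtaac
BAK1: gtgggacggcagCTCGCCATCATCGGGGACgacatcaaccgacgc
BBC3: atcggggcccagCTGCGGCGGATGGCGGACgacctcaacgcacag
PMAIP1: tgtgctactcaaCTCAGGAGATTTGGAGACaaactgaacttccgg
BCL2L11: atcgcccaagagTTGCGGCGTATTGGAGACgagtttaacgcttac
BID: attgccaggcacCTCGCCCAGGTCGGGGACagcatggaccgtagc
BAD: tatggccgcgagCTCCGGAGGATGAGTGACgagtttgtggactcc
A pattern of hydrophobic, leucine, small and aspartate residues, written to take in these members, was found exactly 1 time in each of the 10 proteins. It was also found in 3.34% of 18222 human coding transcripts, so the pattern alone does not define the family. Only 3 of the 18 capital bases were the same in all 10 members. The codon before the aspartate encodes glycine in 8 members, alanine in BBC3 and serine in BAD.

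All 10 members were read well enough to be tested. FPKM is the number of fragments per kilobase of a gene relative to the size of the library, and 11726 genes averaged 1 FPKM or more and were tested. Between 173 and 8494 fragments were counted for a member in a library, and the libraries held 28161816 to 31471993 recovered counts. With PP, 5 members rose and 5 fell (limma, adjusted p below 0.05 by Benjamini-Hochberg over all genes tested). Of all genes tested, 38.1% were higher and 34.4% were lower, so 72.5% were called in either direction. All 10 members had PP libraries that lay apart from the PBS libraries, and so did 75% of the genes tested. A call by itself therefore said little about the family, and the size of each change is given beside it. The median absolute log2 fold change was 0.48 in the members and 0.27 over all genes tested. The median signed change was -0.09 in the members and 0.02 over all genes. A stricter cutoff, an unadjusted P under 0.001 and a log2 fold change beyond 1 in either direction, took 5.18% of the genes tested and 1 member, BBC3. All log2 fold changes are those of FPKM + 1, PP over PBS, and the added 1 shrinks the change of low genes. In bulk RNA, fewer cells of a kind and less RNA per cell cannot be told apart.

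**Figure D1:**
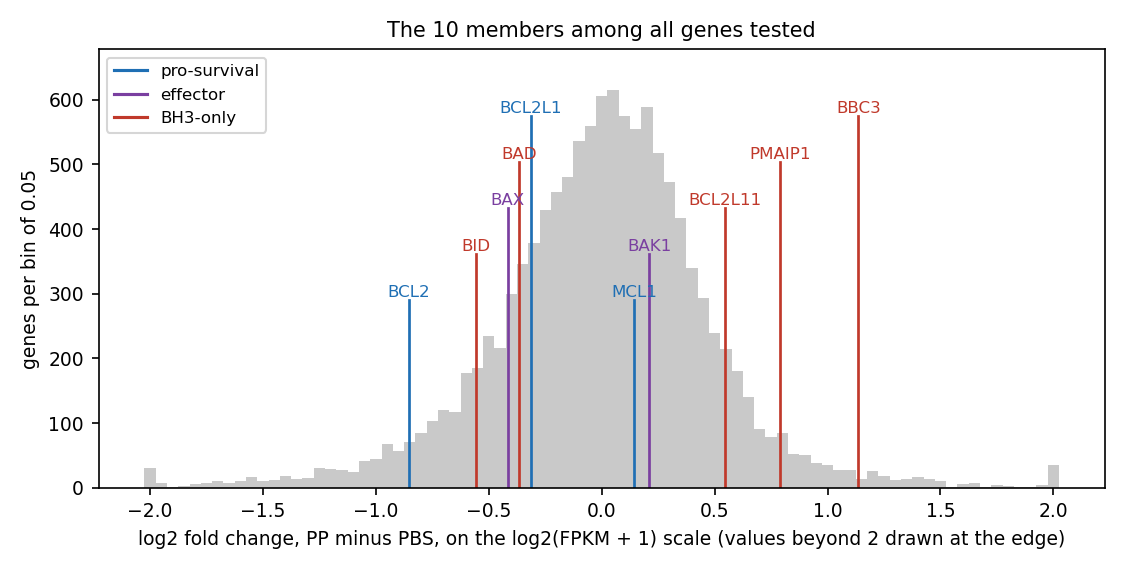
Histogram of the log2 fold change (of FPKM + 1, PP over PBS) of the 11726 genes tested, with a vertical line for each of the 10 members coloured by role. BCL2 lies at -0.86 on the left and BBC3 at 1.14 on the right, while MCL1 and BAK1 lie within the bulk of the genes.

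The neuroendocrine character of the line was seen in every library. The markers CHGA, SYP, NCAM1, ENO2 and INSM1 were detected throughout, at 14.84 to 71.44 FPKM. CHGA, SYP and ENO2 had lower FPKM in every PP library than in any PBS library, and INSM1 had higher FPKM. The epithelial markers EPCAM, KRT8 and KRT18 ranged from 263.6 to 625.7 FPKM, with EPCAM and KRT8 lower and KRT18 higher in every PP library than in any PBS library. Of the markers of other cell types, PTPRC, CD3E, PECAM1, COL3A1 and DCN were at most 0.1206 FPKM, and CD14 reached 1.777 FPKM. COL1A1 was higher in every PP library (4.054 to 4.286 FPKM) than in the PBS libraries (3.195 to 3.452 FPKM), and VWF was lower (0.47 to 0.6821 FPKM against 0.7068 to 0.8666 FPKM). The part of these markers in the results was not tested.

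Among the pro-survival genes, BCL2 fell most. BCL2, the founding member of the family (chr18:63123346-63320090, GRCh38.p14), had 24.76, 26.89 and 26.79 FPKM in the PBS libraries and 13.93, 13.49 and 14.59 FPKM with PP. The mean FPKM with PBS was 26.2 ± 1.20 and the PP mean was 53.6% of it, with an SD of 0.556 FPKM (n = 3 each). BCL2 changed by a log2 fold change of -0.86 (SE 0.05, 95% interval -0.96 to -0.75, limma adjusted p = 1.24e-07). The libraries of a treatment lay close together, and 92.2% of the genes tested had a smaller absolute change.

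BCL2L1, which encodes BCL-XL (chr20:31664452-31723963), moved in the same direction and less. It had 36.56, 36.8 and 35.06 FPKM with PBS and 27.17, 29.83 and 29.67 FPKM with PP. The fall was 0.31 on the log2 scale, with a 95% interval of -0.42 to -0.21 for the change (limma adjusted p = 0.00012). BCL2L1 pools a long pro-survival and a short pro-apoptotic splice form here, as BCL2L11 and MCL1 pool their own forms, since the table has 1 row per gene.

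MCL1, a short-lived protein that binds PMAIP1 and BCL2L11 strongly (chr1:150574558-150579610), was the pro-survival member that rose. Its FPKM was 55.16, 54.15 and 54.97 with PBS and 58.85, 60.5 and 62.63 with PP. The increase was small, a log2 fold change of 0.14 (SE 0.04, limma adjusted p = 0.00411), and 28.0% of the genes tested had a smaller absolute change. The PP libraries all lay above the PBS libraries.

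**Figure D2:**
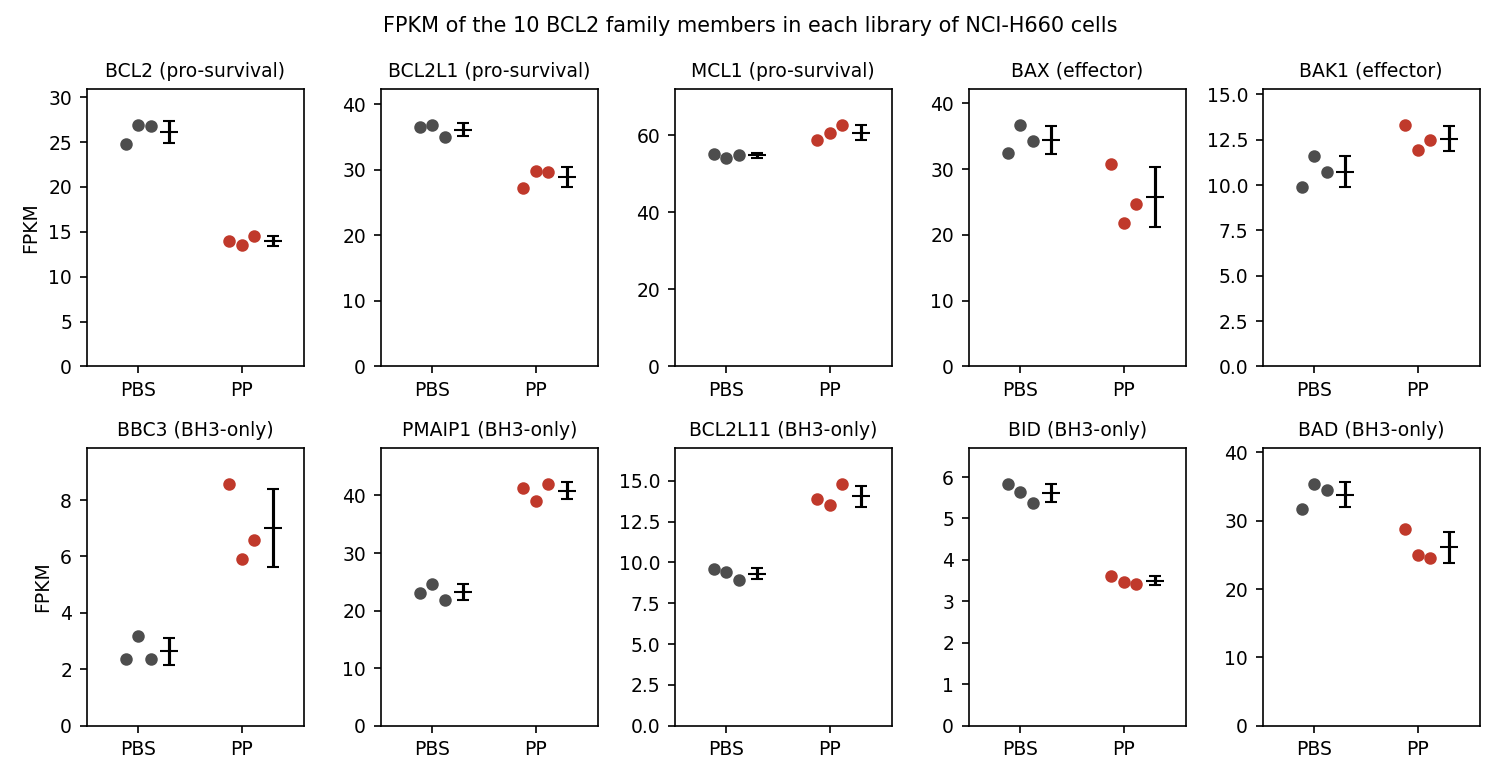
FPKM of each of the 10 members (vertical axes from 0, scaled per gene) in the 3 PBS libraries (grey) and the 3 PP libraries (red), with the mean and SD in black beside them. The 2 groups of points lie apart in every panel, closely for BAX and BAK1 and widely for BCL2, PMAIP1 and BBC3.

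The effectors moved in opposite directions. BAX (chr19:48954875-48961798), which travels from the cytosol to the mitochondrion when activated, had 32.43, 36.7 and 34.29 FPKM with PBS and 30.85, 21.8 and 24.71 FPKM with PP. PP replicate 1 lay just below the lowest PBS library and well above the other PP libraries. The mean FPKM was 34.5 ± 2.14 with PBS and 25.8 ± 4.62 with PP (SD, n = 3 each). The log2 fold change was -0.42 (SE 0.10, limma adjusted p = 0.00369), and it ran from -0.55 to -0.31 when each library was left out in turn.

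BAK1 (chr6:33572552-33580276), which resides on the mitochondrion, had 9.894, 11.59 and 10.72 FPKM with PBS and 13.3, 11.91 and 12.48 FPKM with PP. The highest PBS library and the lowest PP library were close to each other. The log2 fold change was 0.21 (SE 0.06, 95% interval 0.07 to 0.35, limma adjusted p = 0.0116), the call with the highest adjusted p among the members. BAX FPKM was 3.278, 3.167 and 3.199 times that of BAK1 in the PBS libraries and 2.319, 1.83 and 1.98 times in the PP libraries.

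The BH3-only members split into 3 that rose and 2 that fell. BBC3, which encodes PUMA, a protein able to bind every pro-survival member (chr19:47220824-47232860), rose most. Its FPKM was 2.351, 3.187 and 2.357 with PBS and 8.552, 5.906 and 6.588 with PP. The ratio of the means was 2.67, and the log2 fold change was 1.14 (SE 0.12, 95% interval 0.86 to 1.41, limma adjusted p = 1.41e-05). Its counts were low, 173 to 222 per library with PBS, the lowest of the members there, and 424 to 624 with PP. Even so, the lowest PP library was above the highest PBS library, and 96.2% of the genes tested had a smaller absolute change.

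PMAIP1, which encodes NOXA, the partner that promotes breakdown of the MCL1 protein (chr18:59899996-59904305), had 23.11, 24.57 and 21.83 FPKM with PBS and 41.38, 39.1 and 41.92 FPKM with PP. The mean FPKM rose 1.76 times, from 23.2 ± 1.37 to 40.8 ± 1.497 (SD, n = 3 each). This was a log2 fold change of 0.79 (SE 0.05, limma adjusted p = 2.49e-07). The spread within each treatment was small against this difference.

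BCL2L11, which encodes BIM, another binder of all pro-survival members and an activator of BAX (chr2:111120914-111168445), had 9.615, 9.399 and 8.927 FPKM with PBS and 13.88, 13.51 and 14.78 FPKM with PP. BCL2L11 had a log2 fold change of 0.55 (SE 0.05, limma adjusted p = 4.73e-06) and the ratio of the mean FPKM was 1.51. Whether breadth of binding goes with direction was not tested, since no fixed list of such binders was used. BID and BAD fell, as did BMF, a BH3-only gene that is not a member.

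BID (chr22:17734138-17774665), which links death receptors to the mitochondrion once a caspase has cut it, fell. It had 5.822, 5.65 and 5.374 FPKM with PBS and 3.621, 3.456 and 3.416 FPKM with PP, which left 62.3% of the PBS mean. The log2 fold change was -0.56 (SE 0.06, limma adjusted p = 8.47e-06), and the PP libraries were tightly grouped on 278 to 298 counts each.

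BAD (chr11:64269828-64284704), which binds BCL2 and BCL-XL and is held inactive by phosphorylation, had 31.7, 35.32 and 34.51 FPKM with PBS and 28.75, 25.06 and 24.48 FPKM with PP. The log2 fold change was -0.36 (SE 0.06, 95% interval -0.51 to -0.22, limma adjusted p = 0.00044). As with BAX, PP replicate 1 was the PP library nearest to PBS.

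Genes that share their locus set a limit on some of these values. BAD overlaps GPR137, MCL1 overlaps ADAMTSL4, BCL2L11 overlaps MIR4435-2HG and BCL2L1 overlaps ABALON on the opposite strand, and whether the counting used strand is not stated. On the same strand, where strand cannot separate them, MCL1 overlaps ADAMTSL4-AS1 and BCL2 overlaps an unnamed long noncoding RNA. BAK1 has the processed pseudogenes BAK1P1 and BAK1P2, whose reads may be split with it.

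**Figure D3:**
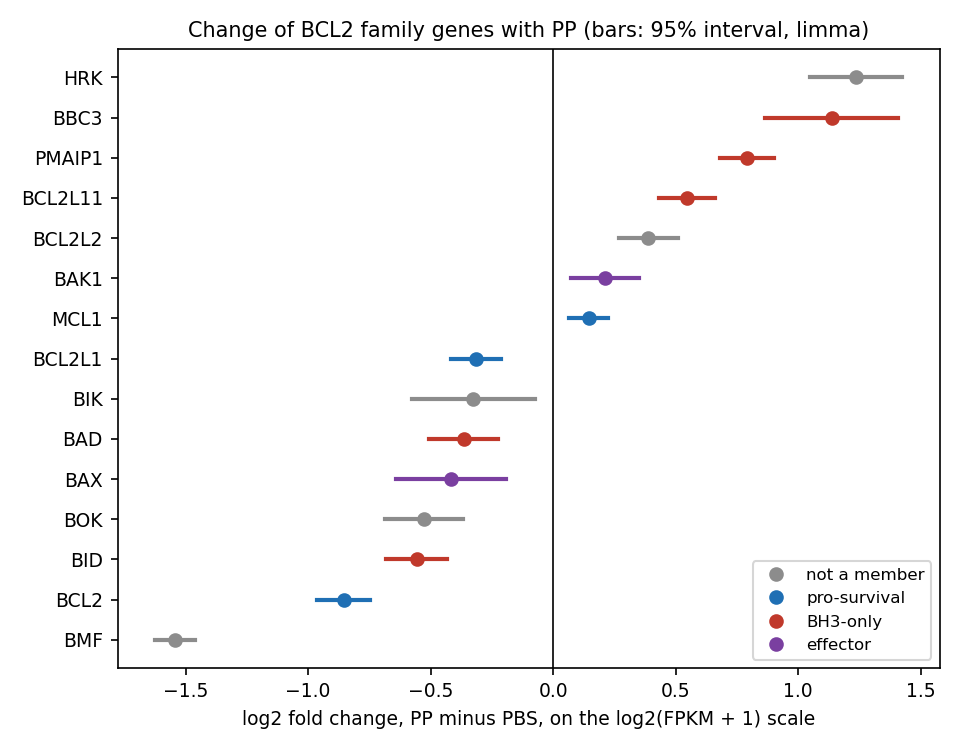
Log2 fold change (of FPKM + 1, PP over PBS) with its 95% interval from limma for the 10 members, coloured by role, and for 5 further family genes in grey. BH3-only genes stand at both ends, with BMF at -1.54 and HRK at 1.24, and no interval of a member reaches 0.

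The order of the members by FPKM, a level per length, kept MCL1 at the top and changed below it. With PBS, MCL1 was highest at 54.8 FPKM, followed by BCL2L1, BAX, BAD, BCL2, PMAIP1, BAK1, BCL2L11, BID and BBC3. The library ranges of BCL2L1 and BAX overlapped, as did those of BAX and BAD. With PP, MCL1 remained highest at 60.7 FPKM and PMAIP1 came next at 40.8 FPKM, followed by BCL2L1, BAD, BAX, BCL2L11, BCL2, BAK1, BBC3 and BID. In that order BCL2L1 overlapped BAD, BAD overlapped BAX and BCL2L11 overlapped BCL2. BCL2L11 came from 0.3883, 0.3496 and 0.3332 of the FPKM of BCL2 in the PBS libraries to 0.9964, 1.002 and 1.013 of it in the PP libraries.

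Summed by role, the 3 pro-survival members gave 116.5, 117.8 and 116.8 FPKM with PBS and 99.95, 103.8 and 106.9 FPKM with PP. MCL1 made up 45.95% to 47.36% of that sum in the PBS libraries and 58.28% to 58.88% in the PP libraries. The share of MCL1 in this sum grew as BCL2 and BCL2L1 went down. BCL2L2, a pro-survival gene that is not a member, is in neither the sum nor the share. It had 12.95 to 14.73 FPKM with PBS and 18.32 to 19.26 FPKM with PP. The BH3-only members were then split by the direction already seen, so the separation of these part sums was fixed by the split. BBC3, PMAIP1 and BCL2L11 together gave 35.07, 37.16 and 33.12 FPKM with PBS and 63.81, 58.52 and 63.29 FPKM with PP. BID and BAD together gave 37.52, 40.97 and 39.88 FPKM with PBS and 32.37, 28.52 and 27.9 FPKM with PP. The 5 BH3-only members thus summed to 0.6231, 0.6632 and 0.625 of the pro-survival sum with PBS and 0.9623, 0.8385 and 0.853 of it with PP. This ratio covers the chosen members only and leaves out other BH3-only and pro-survival genes. PMAIP1 alone had 0.4189, 0.4538 and 0.3972 of the FPKM of MCL1 with PBS and 0.7031, 0.6463 and 0.6694 with PP. The effector sum of BAX and BAK1 was 42.32 to 48.29 FPKM with PBS and 33.72 to 44.16 FPKM with PP, and these ranges overlapped. No test was run on the sums, and RNA sums do not measure protein.

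**Figure D4:**
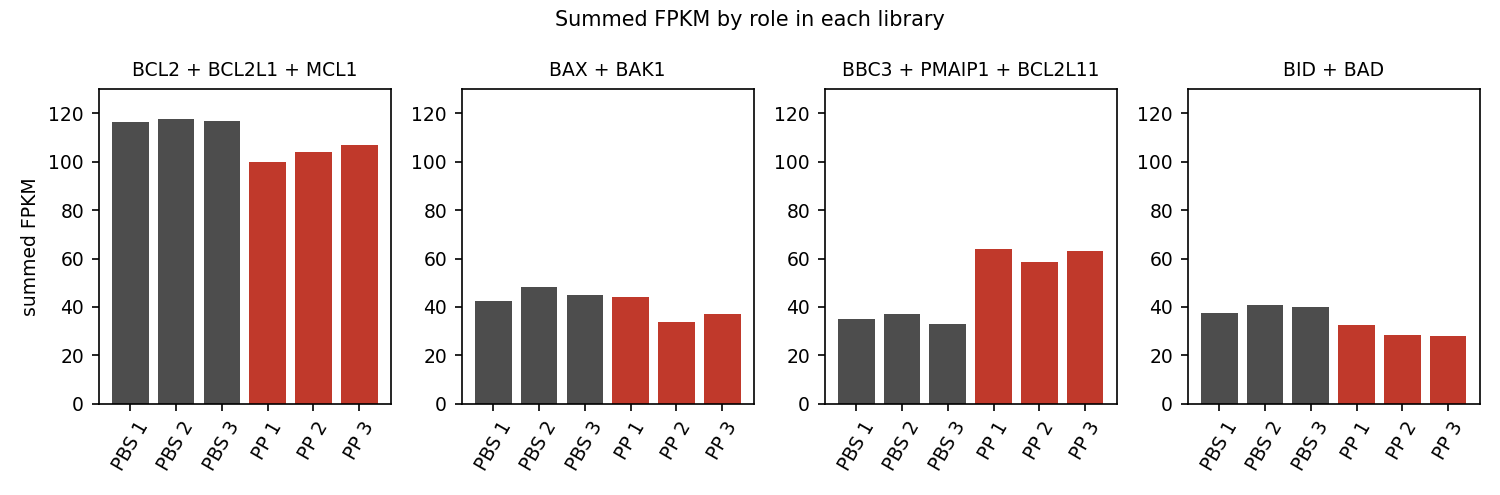
Summed FPKM in each library by role, with the BH3-only members split by the direction already seen (bars from 0, grey for PBS and red for PP). The sum of the 3 pro-survival members is lower in every PP library than in any PBS library, and the effector sums overlap. The third panel (higher with PP) and the fourth panel (lower with PP) lie apart because of that split and show no further result.

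The sum depends on which BH3-only genes are counted, because BMF, the listed BCL2-related gene with the largest fall, is not a member. BMF, a BH3-only gene tied to loss of cell attachment, had 61.71, 59.48 and 60.78 FPKM with PBS and 19.96, 20.59 and 19.9 FPKM with PP. Its log2 fold change was -1.54 (SE 0.04, limma adjusted p = 2.95e-10). HRK, a BH3-only gene known from neurons, had 2.102, 2.097 and 1.526 FPKM with PBS and 5.76, 5.664 and 6.059 FPKM with PP, a log2 fold change of 1.24 (SE 0.08, limma adjusted p = 4.65e-07). With BMF, HRK and BIK added, the 8 BH3-only genes summed to 137.7, 140.8 and 137.0 FPKM with PBS and 123.0, 114.1 and 117.9 FPKM with PP. The sum of 5 members was therefore higher with PP and the sum of 8 genes was lower. The higher ratio to the pro-survival sum given above is likewise that of the 5 members. With PP the sum of 8 genes and the pro-survival sum were both lower, and their ratio was not computed.

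Among these 8 BH3-only genes, 4 rose and 4 fell, where 38.1% of all genes tested rose and 34.4% fell, with a median log2 fold change of 0.11 against 0.02 over all genes. BIK had the weakest call, with -0.33 (limma adjusted p = 0.0239) on 22 to 51 counts and library ranges that overlapped. It averaged 1.372 FPKM with PBS and 0.8885 FPKM with PP, so it was tested only through its PBS libraries. The BIK call was lost without PBS replicate 3, PP replicate 2 or PP replicate 3 (limma adjusted p = 0.0799 to 0.097). BCL2L2, the pro-survival gene for BCL-W, rose with a log2 fold change of 0.39 (limma adjusted p = 9.1e-05), and it overlaps a readthrough gene with PABPN1. BOK, the third effector, fell with -0.53 (limma adjusted p = 8.16e-05), so 1 effector of 3 rose and 2 fell. BCL2L10 was below the filter with 2 to 8 counts per PBS library and 28 to 36 per PP library. In a fit that kept genes down to an average of 0.1 FPKM, its log2 fold change was 0.67 (limma adjusted p = 2.52e-05). BCL2A1 had 0 to 4 counts in any library and BCL2L14 was listed at 0. Of 14 listed BCL2-related genes beyond the members, 10 were tested, 4 rose, 4 fell (BIK among them) and 2 were not called, which is near the 38.1% and 34.4% of all genes. BCL2L12 fell with -0.54 (limma adjusted p = 0.000797), while the mitophagy receptor gene BNIP3L and the autophagy gene BECN1 were at 0.03 and -0.01 (limma adjusted p = 0.629 and 0.913).

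The promoters of 4 members are shown as reference, 3 of the BH3-only genes that rose and BAX, which fell. They are the 250 bases before the transcript start of each RefSeq entry (GRCh38.p14), with motif matches on either strand in capitals. The letters searched were GGGCGG for the GC box, then those of the CCAAT box, then CACGTG for the E box that MYC and related factors bind. The last were TGACGT for the core of the CRE, the cAMP response element.
PMAIP1, chr18:59899746-59899995, plus strand: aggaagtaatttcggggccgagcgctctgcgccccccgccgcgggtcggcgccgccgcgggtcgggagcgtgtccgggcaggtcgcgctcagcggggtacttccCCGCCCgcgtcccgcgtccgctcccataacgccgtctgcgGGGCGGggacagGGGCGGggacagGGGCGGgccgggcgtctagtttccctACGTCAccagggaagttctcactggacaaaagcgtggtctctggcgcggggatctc
BCL2L11, chr2:111120664-111120913, plus strand: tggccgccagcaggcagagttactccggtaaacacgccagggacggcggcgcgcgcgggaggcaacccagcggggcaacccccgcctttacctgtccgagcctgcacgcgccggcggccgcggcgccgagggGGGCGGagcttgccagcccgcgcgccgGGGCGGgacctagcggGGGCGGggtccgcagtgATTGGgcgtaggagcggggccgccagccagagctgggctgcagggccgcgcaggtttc
BBC3, chr19:47232668-47232917, minus strand: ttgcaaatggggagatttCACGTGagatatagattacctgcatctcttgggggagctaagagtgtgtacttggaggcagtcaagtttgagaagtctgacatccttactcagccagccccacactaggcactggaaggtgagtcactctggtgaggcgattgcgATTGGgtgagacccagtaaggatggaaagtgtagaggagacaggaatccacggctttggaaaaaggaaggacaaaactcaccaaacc
BAX, chr19:48954625-48954874, plus strand: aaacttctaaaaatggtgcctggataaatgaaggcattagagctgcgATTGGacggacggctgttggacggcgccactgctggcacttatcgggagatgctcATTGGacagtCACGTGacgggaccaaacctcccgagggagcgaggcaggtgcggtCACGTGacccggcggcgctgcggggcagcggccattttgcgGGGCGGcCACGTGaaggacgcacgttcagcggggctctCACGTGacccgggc
The BBC3 window belongs to a start inside the gene and lies mostly within the gene span given above, as the whole BCL2 window does. PMAIP1 held 4 GC boxes and 1 CRE core, and BCL2L11 held 3 GC boxes and 1 CCAAT. BBC3 held 1 E box and 1 CCAAT. BAX held 4 E boxes, 2 CCAAT and 1 GC box. Of the other members that fell, BAD held 1 CRE core, 1 GC box and 1 CCAAT in each of its entries. BID held 1 E box in its entries 1 and 2 and none in its others, and GC boxes in its entries 1 to 4. BCL2L1 held TATAAA, the TATA box, 2 times in its entry 2 and no match in its entry 1. BAK1, which rose, held 2 GC boxes and 1 CCAAT. Over 35116 human promoters of this length, 42.6% held GGGCGG, 32.0% held CCAAT, 7.1% held TGACGT and 6.34% held CACGTG. At least 4 E boxes were found in 5 of these promoters, or 0.0142%. The cutoff of 4 was the count found in BAX itself, so this share is a description and no test. TGATGNAAT, the composite element of C/EBP and ATF factors, was in 0.888% of promoters and in none of the 15 entries of the 9 members with an entry. BCL2, with no match to any of these letters or to TATAAA (in 10.7% of promoters) and TGACGTCA (the full CRE, which contains its core, in 1.65%), had a GC content of 70.0%, against a median of 58.0% over all promoters. A match describes letters in the window and no site in these cells.

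Transcription factors known to act on BCL2 family genes were listed next. Of 9 reported here, 8 were tested, 6 rose, 1 fell and 1 was not called, where 38.1% of all genes rose and 34.4% fell, with a median log2 fold change of 0.57 against 0.02 over all genes tested. MYC, which binds E boxes, went from 6.39 ± 0.574 to 49.2 ± 2.30 FPKM (SD, n = 3 each), a log2 fold change of 2.77 (limma adjusted p = 1.75e-10). ATF3, a stress-induced factor, went from 19.1 ± 0.838 to 132.4 ± 3.63 FPKM, a log2 fold change of 2.73 (limma adjusted p = 3.49e-11). The other 4 that rose were DDIT3, ATF4, FOXO3 and FOXO1, of which DDIT3, the stress factor CHOP, had a log2 fold change of 1.92. TP73 fell with -0.49 (limma adjusted p = 4.28e-06). E2F1 was at -0.02 (limma adjusted p = 0.681) and TP63 had 7 to 28 counts per library. DDIT3, ATF4, FOXO3 and FOXO1 were named after their values were seen. FOXO1 averaged 0.8896 FPKM with PBS and 1.211 FPKM with PP, so it was tested only through its PP libraries, and its call was lost without PBS replicate 1, PBS replicate 2, PP replicate 2 or PP replicate 3 (limma adjusted p = 0.0567 to 0.0793). Without FOXO1, 5 of 7 tested factors rose, with a median log2 fold change of 0.65. The list was chosen with earlier results of these data known, so its count is a description.

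**Figure D5:**
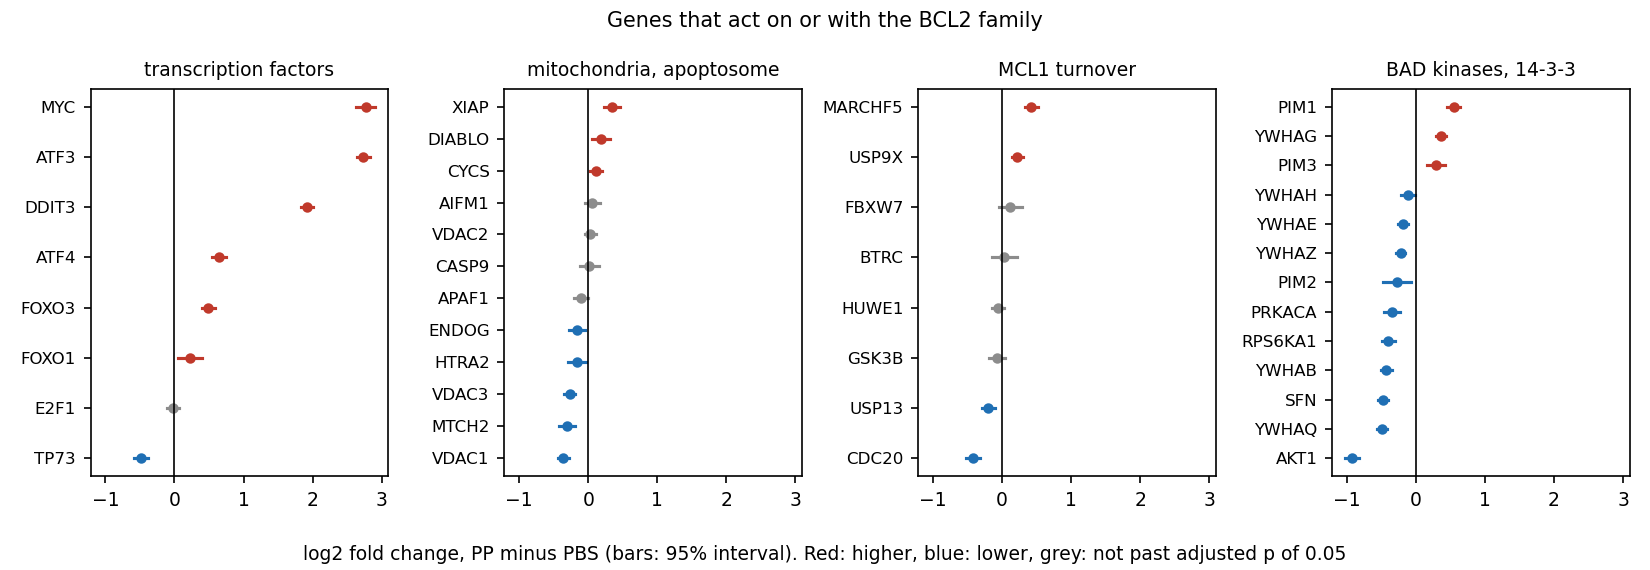
Log2 fold change (PP over PBS) with its 95% interval from limma for the tested genes of 4 lists, in red where higher, blue where lower and grey where not past an adjusted p of 0.05. MYC lies at 2.77 and ATF3 at 2.73 in the left panel, while the genes of the other panels lie between -0.92 and 0.55.

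Downstream of the family, 12 genes of the mitochondrial membrane and the apoptosome, the complex that activates caspase 9, were listed. With PP, 3 were higher, 5 were lower and 4 were not called, against 38.1% and 34.4% of all genes, and the median log2 fold change was -0.05. The calls for CYCS, DIABLO, HTRA2 and ENDOG were each lost with some library left out (limma adjusted p up to 0.107), and without PBS replicate 2 only 1 gene of the list, XIAP, was higher. XIAP, an inhibitor of caspases, rose with 0.34 (limma adjusted p = 0.000209), and DIABLO, which antagonises XIAP, had 0.18 (limma adjusted p = 0.0183), a call lost without PBS replicate 2 or PP replicate 2 (limma adjusted p = 0.0794 and 0.0753). VDAC1, an outer membrane channel, fell with -0.36 (limma adjusted p = 7.03e-06), and MTCH2, a membrane receptor for BID, fell with -0.31 (limma adjusted p = 0.000279). APAF1 and CASP9, the core of the apoptosome, were at -0.11 (limma adjusted p = 0.0578) and 0.01 (limma adjusted p = 0.85). With limma-voom on the recovered counts, APAF1 was called lower (-0.12, limma-voom adjusted p = 0.0318).

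MCL1 is controlled largely by destruction of its protein, and 8 genes of that control were listed. MARCHF5, a mitochondrial ubiquitin ligase, rose with 0.42 (limma adjusted p = 1.08e-05), and USP9X, which removes ubiquitin from MCL1, rose with 0.22 (limma adjusted p = 0.000408). CDC20, an activator of the mitotic ligase APC/C, fell with -0.42 (limma adjusted p = 1.13e-05), and USP13, another enzyme that removes ubiquitin, fell with -0.20 (limma adjusted p = 0.00137). The ligase genes HUWE1, FBXW7 and BTRC and the kinase gene GSK3B were not called, with log2 fold changes of -0.06, 0.12, 0.03 and -0.07. FBXW7 was called higher without PP replicate 1 (0.18, limma adjusted p = 0.0465) and GSK3B lower without PP replicate 3 (-0.13, limma adjusted p = 0.0187).

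BAD is silenced by kinases that phosphorylate it and by the adaptor proteins of the YWHA family and SFN, which then hold it in the cytosol. Of 13 such genes, 10 fell and 3 rose, where 34.4% of all genes fell and 38.1% rose, with a median log2 fold change of -0.27 against 0.02 over all genes tested. Of the 10 falls, 8 were called whichever library was left out. The call for PIM2 was lost without PBS replicate 2, PP replicate 1 or PP replicate 3 (limma adjusted p = 0.062 to 0.0741), and that for YWHAH when any library other than PP replicate 2 was left out (limma adjusted p = 0.0568 to 0.11). AKT1, a kinase of BAD, fell from 66.6 ± 2.61 to 34.7 ± 1.503 FPKM (SD, n = 3 each), a log2 fold change of -0.92 (limma adjusted p = 3.75e-08), and the adaptor YWHAQ fell with -0.49 (limma adjusted p = 3.22e-07). PIM1, another kinase of BAD, rose with 0.55 (limma adjusted p = 9.46e-07), and the adaptor YWHAG rose with 0.36 (limma adjusted p = 4.46e-06). BAD itself fell, as given above. This list too was chosen with earlier results of these data known, so its count is a description, and any effect on BAD protein was not tested.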

How the data were processed

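RNA of NCI-H660 cells was sequenced from stranded mRNA libraries with paired-end reads. The authors deposited FPKM values for 17177 gene symbols in 6 libraries, and all value columns were used. The methods name Bowtie, RSEM, Cufflinks, HTSeq-count and hg19, whereas the submitters' processing notes name fastp, HISAT2, HTSeq and GRCh38. Which of them gave the FPKM is not stated, and the methods give fewer samples per group than the labels. The table has no coordinates, so positions are those of RefSeq on GRCh38.p14. FPKM steps gave whole reads for 17163 genes (99.92%, tolerance 0.01 of a count) and so the counts and depths.

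Genes averaging 1 FPKM or more were fitted with limma 3.58.1 in R 4.3.3 on log2(FPKM + 1), with an intensity trend in eBayes, and P values were adjusted by Benjamini-Hochberg. The step was tested on simulated data. Genes named were the 10 members, the 2 highest and the 2 lowest past the threshold in each list, and genes near 0. BIK, genes not called and several factors were named after their values were seen. Members and lists were chosen with earlier results of these data known. Promoters and transcripts of chromosome 8 were left out of the searches, and MCL1 had no entry. Alternatives varied the pseudocount, filter, scaling, trend, replicate block and libraries, and used limma-voom on the recovered counts. The results for some listed genes are not reported here.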

Additional observations from a re-analysis of the deposited data

How the results depend on the processing

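The 10 members kept their direction and their call in all 148 refits over 15 alternatives in which they were tested, and the highest adjusted p was 0.0451, for BAK1. With a mean FPKM of at least 5, BBC3 and BID were not tested, and 4 members were higher and 4 were lower. The numbers of called genes stayed within 1.5 times throughout. Same-numbered libraries did not deviate together (correlations of -0.21, -0.01 and -0.13), and a fit with the replicate block called 4260 genes higher and 3878 lower, with 5 members each way. Left out 1 library at a time, BNIP3L, a relative of the family, ran from -0.025 to 0.065 on the log2 scale (below 0 without PP replicate 3) and BECN1 from -0.017 to 0.009 (not below 0 without PBS replicate 2 or PP replicate 3), and neither was called. The call for BIK was lost with no filter (-0.33, limma adjusted p = 0.0607) and with limma-voom (-0.62, limma-voom adjusted p = 0.0661). The fall of BIK was thus larger with limma-voom than the -0.33 of the main fit. It was -0.57 and -0.62 with pseudocounts of 0.1 and 0.01. Its call was also lost without PBS replicate 3, PP replicate 2 or PP replicate 3 (-0.28 to -0.22, limma adjusted p = 0.0799 to 0.097). Counts limit the lowest genes, and protein was not measured.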
